A study of Mus musculus with 17 samples.

Results

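The genes described here build, drive and supervise mitosis and the segregation of chromosomes. Of 43 genes listed by symbol, 42 were measured in whole lungs of 17 Balb/c mice, among 19751 genes in all. Each of the 42 had 1 probe set on the array (Affymetrix Mouse Gene 1.0 ST) that the annotation ties to a single symbol. The listed cyclin gene Ccnb1 had none and is not analysed here. The saline group (6 mice) was given saline at sensitization and at challenge. The isotype group (5 mice) was given ovalbumin, the allergen, at both steps and was treated with an isotype control antibody. The anti-RGMb group (6 mice) was given ovalbumin in the same way and was treated with a monoclonal anti-RGMb antibody (RGMb binds BMPs, the bone morphogenetic proteins, and the receptor neogenin). The labels name no antibody for saline mice, no age and no sex, so the isotype group differs from the saline group by allergen and antibody together. The series' design text lists 2 replicate sets, the first with 3 mice per group and the second with 3 saline, 3 anti-RGMb and 2 isotype mice. They are called experiment 1 and experiment 2 here, and mice were placed in the second by the ending of their titles, as 1-2, 2-2 and 3-2. The labels do not say how these sets differ.

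Most cells of a resting adult lung are out of the cell cycle, and the genes of this set are switched on together in cells that pass from the end of DNA replication through mitosis. In such cells cyclin-bound Cdk1 starts mitosis, condensins and topoisomerase pack the chromosomes, kinesins build the spindle, kinetochores attach chromosomes to it, the checkpoint waits for all attachments, and Cdc20 with the anaphase promoting complex then releases sister chromatids before the cell is cut apart. Their transcription is held down in resting cells by the DREAM complex, which contacts the cell cycle genes homology region (CHR, letters TTTGAA or TTCGAA), and is raised in dividing cells by B-Myb and FoxM1 and through NF-Y at the CCAAT box.

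Sequence upstream of 5 members is shown because the set moved together in these lungs and its genes often carry these letters. Capitals mark the CCAAT box, the letters TTTGAA and the variant TTCGAA on the strand shown. On the opposite strand the box reads ATTGG, the first set of letters then reads TTCAAA, and the variant reads the same. The sequences are RefSeq's for the GRCm38.p6 build and end at the last base before the annotated gene. Mki67, Top2a, Cdk1 and Kif11 hold both kinds of motif, and Ncaph, the member with the smallest difference in each comparison, holds neither. These 5 are no measure of the rest: Nuf2, which rose by 2.26, also holds neither in its window, and Kif2c, with the largest fall under anti-RGMb, holds TTTGAA but no CCAAT. The Mki67 stretch is chr7:135716451-135716629 on the minus strand, that of Top2a is chr11:99024200-99024439 (minus), that of Cdk1 is chr10:69352913-69353162 (minus), that of Kif11 is chr19:37376132-37376381 (plus) and that of Ncaph is chr2:127133955-127134204 (minus).
Mki67: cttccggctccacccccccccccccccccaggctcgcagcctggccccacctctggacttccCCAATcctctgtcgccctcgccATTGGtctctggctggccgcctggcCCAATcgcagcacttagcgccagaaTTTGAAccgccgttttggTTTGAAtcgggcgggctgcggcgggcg
Top2a: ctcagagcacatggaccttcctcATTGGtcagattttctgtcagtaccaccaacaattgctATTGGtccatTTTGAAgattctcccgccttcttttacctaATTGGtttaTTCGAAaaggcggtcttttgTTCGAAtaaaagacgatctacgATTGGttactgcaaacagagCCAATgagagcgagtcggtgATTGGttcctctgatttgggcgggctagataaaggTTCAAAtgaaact
Cdk1: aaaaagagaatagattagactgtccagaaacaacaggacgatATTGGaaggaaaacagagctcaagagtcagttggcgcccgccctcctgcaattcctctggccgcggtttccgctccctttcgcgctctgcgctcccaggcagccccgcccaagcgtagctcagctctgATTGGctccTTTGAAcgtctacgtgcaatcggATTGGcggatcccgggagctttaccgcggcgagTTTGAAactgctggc
Kif11: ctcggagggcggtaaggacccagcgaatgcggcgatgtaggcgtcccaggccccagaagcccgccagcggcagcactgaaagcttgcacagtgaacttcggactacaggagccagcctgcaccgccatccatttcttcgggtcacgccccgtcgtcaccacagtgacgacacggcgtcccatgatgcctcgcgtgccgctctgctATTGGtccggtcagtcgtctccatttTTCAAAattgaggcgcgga
Ncaph: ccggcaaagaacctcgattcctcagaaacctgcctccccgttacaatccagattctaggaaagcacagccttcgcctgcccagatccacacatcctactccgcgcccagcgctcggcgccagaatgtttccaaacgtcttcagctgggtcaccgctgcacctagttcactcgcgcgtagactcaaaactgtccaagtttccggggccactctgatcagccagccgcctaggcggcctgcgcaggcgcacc
The Top2a stretch holds 6 CCAAT boxes, 2 TTTGAA and 2 TTCGAA, that of Mki67 holds 3 CCAAT and 2 TTTGAA, that of Cdk1 also 3 and 2, and that of Kif11 holds 1 of each.

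Promoter windows from 250 bases before to 50 bases after a start were found for 37 of the 42 members, and Aurkb, Ccna2, Dlgap5, Kif20a and Tpx2 were not matched. CCAAT, counted on both strands, stood in the windows of 25 of the 37 members (67.6%) and of 42.3% of 17454 other coding genes. TTTGAA or TTCGAA stood in those of 30 members (81.1%) and of 20.1% of the other genes, and 24 members (64.9%) against 8.10% held CCAAT and one of these. Only 1 pair of different motifs overlapped in the members' windows. CCAAT lay before the start, in 25 members (67.6%) against 39.4% of other genes, and in the 50 bases after it in 2 members (5.41%) against 5.15%. The CHR letters lay in the 50 bases after the start in 20 members (54.1%) against 2.26%, and before the start in 15 (40.5%) against 18.4%. The split at the start was looked at after the counts over the whole window were known. A match of letters is a description of the sequence and does not show that a factor binds there.

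Values per mouse are given as log2 intensity minus the mean of the saline mice of the same experiment, called the level over saline. Differences between groups, with standard errors, and adjusted p come from limma over all 19751 genes with the experiment as a term (Benjamini-Hochberg, 2-sided, threshold 0.05). Arrays of an experiment were alike, with lowest correlations across genes of 0.975 and 0.968, and of 12 lung markers 6, among them Sftpc, Scgb1a1, Ager and Cdh5, stood at or above percentile 99.1 of each array, Pecam1, Napsa, Aqp5 and Hopx at or above 90.1, Scgb3a2 at 42.2 to 98.9 and Foxj1 at 52.6 to 62.4. The deposited values of the experiments lie on different scales, with array medians of 120 to 125 and of 362 to 386, so that intensities are compared only within an experiment. Saline mouse 1 stood apart from the other saline mice of its experiment, with a mean over the 42 genes of -0.42 against 0.19 and 0.23. Some deposited values were exactly equal in mice of 1 group and experiment. This was so for 8 members in the anti-RGMb mice of experiment 1 and for 8 in those of experiment 2, and for 0 members in the saline or isotype mice. Over all genes the share was 15% and 8.95% in those anti-RGMb mice, 12% and 8.18% in saline mice and 11.5% and 1.03% in isotype mice (only 2 mice in experiment 2). For Cdc20 in experiment 1 and Cdk1 in experiment 2 all 3 anti-RGMb mice shared 1 value, so the spread among them was 0 there. The part of such equal values in the tests was not tested.

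The whole set rose in the isotype group and, on the log2 scale, stood at about the middle of that rise in the anti-RGMb group. All 42 measured genes were higher in isotype than in saline mice, against 14.6% of all genes called higher. Their differences ran from 0.92 (Ncaph) to 2.47 log2 units (Mki67) with a median of 1.84, where the median of all genes was -0.04, and 41 of the 42 were at least 2-fold higher (2.69% of all genes). The folds ran from 1.89 to 5.55 with a median of 3.58. Saline and isotype mice did not overlap for any of the 42 genes, and every isotype mouse was above every saline mouse for 10.6% of all genes. Adjusted p ran from 1.3e-10 (Nusap1) to 1.3e-06 (Cdc20). Without saline mouse 1 the median difference was 1.77 and the same number of members passed the threshold.

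All 42 genes were lower in anti-RGMb than in isotype mice, where 10% of all genes were called lower. The differences ran from -1.23 (Kif2c) to -0.56 (Ncaph) with a median of -0.99, against 0.03 over all genes, and 21 of the 42 fell at least 2-fold (0.613% of all genes). The isotype level was 1.48-fold to 2.35-fold that under anti-RGMb, with a median of 1.99-fold and adjusted p of 7.5e-06 (Smc2) to 0.00146 (Prc1). Within each experiment every anti-RGMb mouse was below every isotype mouse for all 42 genes (7.26% of all genes). With the experiments pooled this held for 40 (5.12% of all genes), the exceptions being Cdc20 and Spc25. This comparison shares its isotype mice with the one before.

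All 42 genes were also higher in anti-RGMb than in saline mice, where 4.26% of all genes were called higher. The differences ran from 0.36 (Ncaph) to 1.30 (Mki67) with a median of 0.90, and 16 genes were at least 2-fold higher (0.618% of all genes). Adjusted p ran from 8.6e-07 (Nusap1) to 0.0207 (Ndc80). Every anti-RGMb mouse was above every saline mouse for 40 genes (4.18% of all genes), and Kif4 and Ndc80 overlapped. As a description, the difference of the anti-RGMb group from saline was 31.3% (Kif4) to 55.6% (Ccna2) of the difference of the isotype group, with a median of 47.8%. Both differences share the saline mice. These percentages, here and below, are of log2 differences, and on the scale of intensity the part left is smaller. There the median folds over saline were 3.58 in isotype and 1.87 in anti-RGMb mice. In whole lung, fewer dividing cells and less of these mRNAs per cell cannot be told apart.

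The mean over the 42 genes separated the groups mouse by mouse. It was 1.73, 1.80, 1.39, 2.04 and 2.19 in isotype mice 1, 2, 3, 1-2 and 2-2. Anti-RGMb mice 1, 2, 3, 1-2, 2-2 and 3-2 had 0.97, 0.77, 0.90, 0.96, 0.85 and 0.79, and the saline mice had -0.42, 0.19, 0.23, -0.10, 0.02 and 0.07 in the same order. The lowest isotype mouse, number 3, was above the highest anti-RGMb mouse, and the lowest anti-RGMb mouse was above the highest saline mouse.

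**Figure D1:**
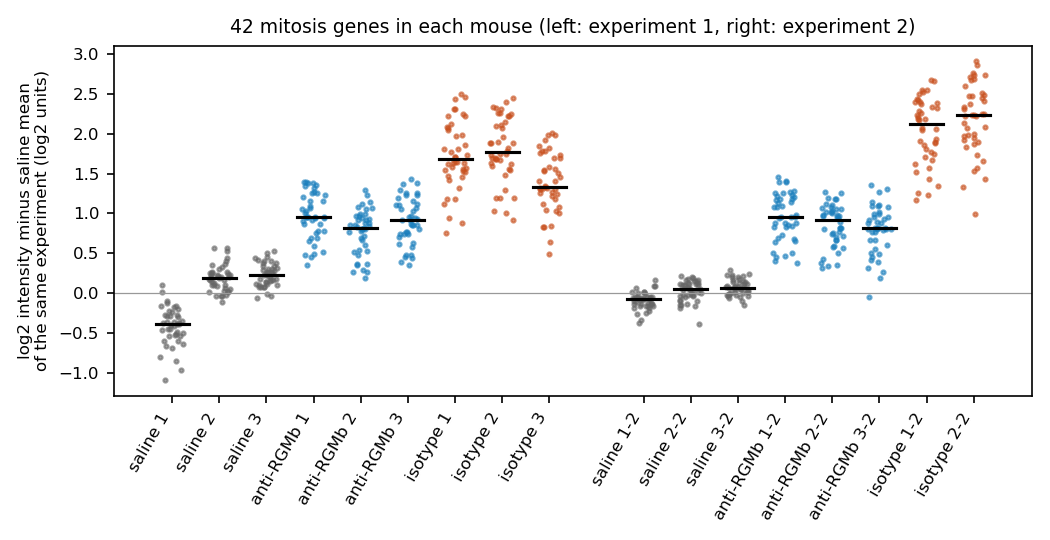
Each point is 1 of the 42 genes in 1 mouse, as log2 intensity minus the saline mean of the same experiment, and black bars are the median over genes. Grey is saline, blue anti-RGMb and orange isotype, with experiment 1 on the left. The mean over genes lies at 0.77 to 0.97 in anti-RGMb mice and at 1.39 to 2.19 in isotype mice, and saline mouse 1 lies lowest.

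The motor proteins come first among the members by role. The 8 mitotic kinesins rose by 1.35 to 2.32 in isotype mice and were lower by 0.80 to 1.23 under anti-RGMb. Kif11 slides the overlapping microtubules of the spindle apart and so separates its poles. Its level over saline was 2.31, 2.25, 1.92, 2.39 and 2.69 in the 5 isotype mice, in the order given above. It was 0.97 at the lowest, 1.12 at the median and 1.38 at the highest in anti-RGMb mice, and -0.47, 0.10 and 0.31 in saline mice. The 3 groups did not overlap. Isotype mice were higher than saline mice by 2.32 ± 0.14 (adjusted p = 7.1e-10, limma), and anti-RGMb mice were lower than isotype mice by 1.18 ± 0.14 (adjusted p = 1.5e-05).

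Kif2c, which depolymerises microtubules at kinetochores to undo wrong attachments, had the largest fall under anti-RGMb. Isotype mice had 2.08, 2.22, 1.69, 2.43 and 2.73 over saline. Anti-RGMb mice had 0.85, 0.94 and 1.36 as lowest, median and highest value. No anti-RGMb mouse reached the isotype range, and the fall was 1.23 ± 0.14 (adjusted p = 1.5e-05, limma), a factor of 2.35. Cenpe, the motor that carries chromosomes to the spindle equator, rose by 2.22 ± 0.16 in isotype mice and fell by 1.20 ± 0.16 under anti-RGMb.

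Kif4, a chromosome-bound kinesin of chromosome condensation and the central spindle, kept the smallest percentage of its isotype difference under anti-RGMb, at 31.3%. The isotype mice had 1.47, 1.48, 1.08, 1.23 and 1.53 over saline. In anti-RGMb mice 1, 2, 3, 1-2, 2-2 and 3-2 it was 0.65, 0.48, 0.70, 0.41, 0.34 and -0.05, and saline mice lay between -0.05 and 0.09. Anti-RGMb mouse 3-2 was at the saline level and the other 5 were above all saline mice. Kif4 remained higher than in saline mice by 0.42 ± 0.10 (adjusted p = 0.0144, limma), and with quantile normalization this was 0.37 (adjusted p = 0.0634). Kif20b, also a kinesin of cell division, was similar, with a rise of 1.58 ± 0.12 of which 37.9% was left. Kif20a and Kif23, motors of the central spindle needed for cytokinesis, kept 51.0% each of rises of 2.05 ± 0.16 and 1.63 ± 0.12. Kif15, a spindle motor that works beside Kif11, rose by 1.96 ± 0.16 and kept 45.0%.

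**Figure D2:**
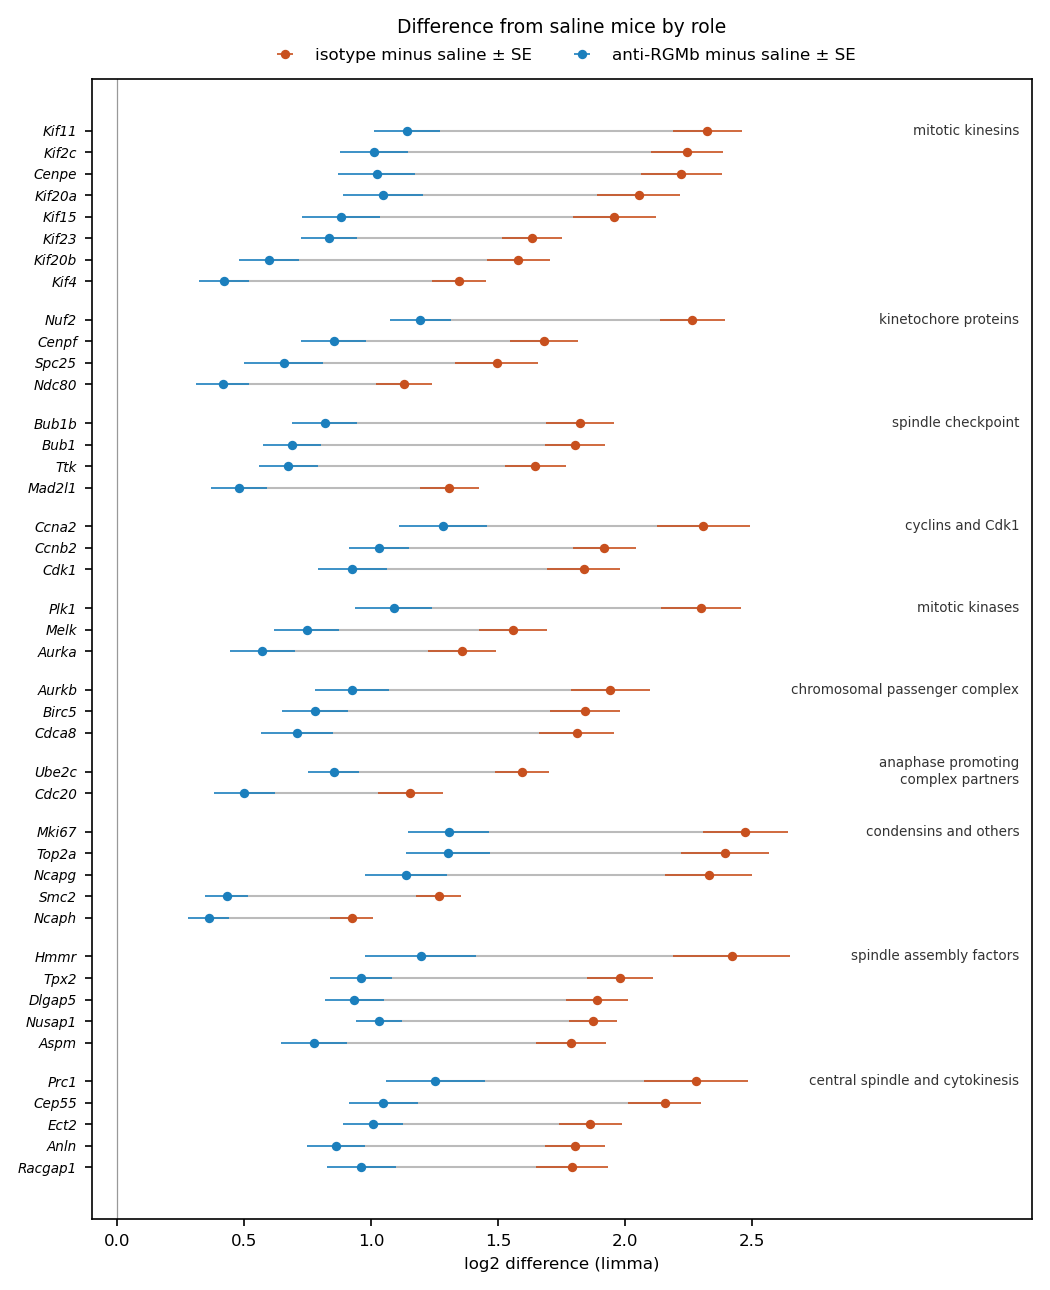
Differences from saline mice for the 42 genes, grouped by role, in log2 units with standard errors from limma. Orange is isotype minus saline (5 and 6 mice) and blue is anti-RGMb minus saline (6 and 6 mice). In each line the blue point lies between 0 and the orange point, from 31.3% (Kif4) to 55.6% (Ccna2) of the way.

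The kinetochore proteins Ndc80, Nuf2 and Spc25 are subunits of 1 complex that grips the spindle microtubules, and Cenpf is a large protein of the outer kinetochore. Though partners, they differed in the size of their measured rise: Nuf2 rose by 2.26 ± 0.13 in isotype mice, Spc25 by 1.49 ± 0.16 and Ndc80 by 1.13 ± 0.11. The differences between these genes were not tested. Each was measured by 1 probe set, and probes differ in their response to the amount of RNA. Such differences are therefore not by themselves differences in mRNA. For Ndc80 the isotype mice had 1.11, 1.00, 0.83, 1.35 and 1.33 over saline. Its anti-RGMb values were 0.19, 0.34 and 0.69 as lowest, median and highest, and those of saline were -0.17, -0.04 and 0.29. Isotype mice lay above all others, whereas anti-RGMb mouse 2 lay below saline mouse 3. Ndc80 fell by 0.71 ± 0.11 under anti-RGMb (adjusted p = 1.7e-04, limma) and stayed above saline by 0.42 ± 0.10 (adjusted p = 0.0207). That last call was lost when saline mouse 1 (0.38, adjusted p = 0.0506), saline mouse 1-2 (0.40, 0.0527), anti-RGMb mouse 1 (0.35, 0.0528) or anti-RGMb mouse 3 (0.37, 0.0613) was left out. Spc25 was 1.13 and 1.05 over saline in anti-RGMb mice 1-2 and 2-2 but 0.37 to 0.51 in the other 4.

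The spindle checkpoint genes Bub1, Bub1b, Mad2l1 and Ttk encode the proteins that hold back anaphase until each chromosome is attached. They rose by 1.31 (Mad2l1) to 1.82 (Bub1b), and 36.7% to 44.8% of the difference was left under anti-RGMb. Bub1, a kinase that recruits other checkpoint proteins to kinetochores, had 1.62, 1.79, 1.41, 1.88 and 2.25 in the isotype mice. Its lowest, median and highest values were 0.50, 0.71 and 0.86 in anti-RGMb mice and -0.24, 0.02 and 0.23 in saline mice. The 3 groups stood clear of each other, with a rise of 1.80 ± 0.12 (adjusted p = 2.8e-09, limma) and a fall of 1.11 ± 0.12 (adjusted p = 8.1e-06). Ttk, the kinase at the head of the checkpoint, rose by 1.65 ± 0.12, and the fall under anti-RGMb was 0.97 ± 0.12.

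Cyclins A and B and their kinase Cdk1 carry the cell into mitosis. Ccna2 kept the largest part of its rise, at 2.31 ± 0.18 in isotype and 1.28 ± 0.17 in anti-RGMb mice, both over saline. Ccnb2 rose by 1.92 ± 0.12 and kept 53.7%. Cdk1 stood at 1.45, 1.67 and 1.18 in the isotype mice of experiment 1 and at 2.21 and 2.49 in those of experiment 2. Anti-RGMb mice had 0.76, 0.93 and 1.08 as lowest, median and highest value, and saline mice -0.27, 0.08 and 0.17. The groups did not overlap, and the isotype mice of experiment 2 were the highest. Cdk1 rose by 1.84 ± 0.14 (adjusted p = 2.0e-08, limma) and was lower by 0.91 ± 0.14 under anti-RGMb (adjusted p = 2.1e-04).

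Among the other mitotic kinases, Plk1, which acts from entry into mitosis to cytokinesis, had 2.05, 2.26, 1.69, 2.67 and 2.71 over saline in isotype mice. In anti-RGMb mice it was 0.93, 1.06 and 1.25 at the lowest, median and highest. All 6 were far below the isotype mice and above the saline range of -0.50 to 0.42. The rise was 2.30 ± 0.16 (adjusted p = 4.8e-09, limma) and the fall 1.21 ± 0.16 (adjusted p = 4.4e-05). Aurka, the kinase of the spindle poles, rose by 1.36 ± 0.13, and Melk, a kinase gene expressed in dividing cells, by 1.56 ± 0.13.

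The chromosomal passenger complex corrects faulty attachments and then marks the site of division. Its kinase Aurkb and its subunits Birc5 (survivin) and Cdca8 (borealin) rose by 1.94 ± 0.15, 1.84 ± 0.14 and 1.81 ± 0.15. Aurkb was at 1.42, 1.73 and 1.26 in isotype mice of experiment 1 and at 2.54 and 2.52 in those of experiment 2. Its anti-RGMb values ran from 0.58 over a median of 0.89 to 1.25. The highest anti-RGMb mouse, 1-2, was thus just under the lowest isotype mouse, 3, but these are mice of different experiments. The 3 genes fell by 1.02 to 1.10 under anti-RGMb, and 39.2% (Cdca8) to 47.6% (Aurkb) of the difference was left.

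Cdc20 activates the anaphase promoting complex, a ubiquitin ligase, and Ube2c is the conjugating enzyme that serves it. In isotype mice Cdc20 was at 0.88, 0.91 and 0.49 in experiment 1 and at 1.57 and 1.73 in experiment 2. In anti-RGMb mice it was at 0.35 in all 3 mice of experiment 1 and at 0.70, 0.71 and 0.55 in experiment 2. Isotype mouse 3 was below the anti-RGMb mice of the other experiment, though above those of its own. Cdc20 rose by 1.15 ± 0.13 and fell by 0.65 ± 0.13 (adjusted p = 1.3e-06 and 0.00121, limma). Ube2c rose by 1.59 ± 0.11, and 53.5% of this was left.

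Chromosome structure genes held both the largest and the smallest difference from saline, in isotype and in anti-RGMb mice. Mki67 encodes the Ki-67 protein that coats mitotic chromosomes and serves as the usual marker of dividing cells. Its deposited intensity in experiment 1 was 118, 211 and 252 in saline mice, 480, 452 and 480 in anti-RGMb mice and 997, 1007 and 742 in isotype mice. In experiment 2 it was 318, 465 and 471 in saline, 1079, 835 and 1054 in anti-RGMb and 2602 and 2790 in isotype mice. In each experiment the order was saline, anti-RGMb, isotype, without overlap. The rise was 2.47 ± 0.17 (adjusted p = 4.0e-09, limma), the fall under anti-RGMb 1.17 ± 0.17 (adjusted p = 9.8e-05) and the difference left 1.30 ± 0.16 (adjusted p = 3.7e-05).

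Top2a, the topoisomerase that untangles sister chromatids, was close behind. Isotype mice had 2.47, 2.33, 1.99, 2.40 and 2.73 over saline, and anti-RGMb mice 1.19, 1.30 and 1.41 as lowest, median and highest. Saline mice spread more, from -0.80 in mouse 1 to 0.44 in mouse 3. Top2a rose by 2.39 ± 0.17 and fell by 1.09 ± 0.17 (adjusted p = 9.1e-09 and 2.4e-04, limma).

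The condensin subunits Ncapg, Ncaph and Smc2 work in 1 ring complex, yet their values differed. Ncapg rose by 2.33 ± 0.17, Smc2 by 1.27 ± 0.09 and Ncaph by 0.92 ± 0.08. Ncaph was at 0.76, 1.03, 0.64, 1.17 and 0.99 in isotype mice. Its lowest, median and highest values were 0.19, 0.37 and 0.48 in anti-RGMb mice and -0.16, 0.01 and 0.10 in saline mice, so that its groups were apart despite the small size. Ncaph fell by 0.56 ± 0.08 under anti-RGMb (adjusted p = 1.5e-04, limma) and stayed above saline by 0.36 ± 0.08 (adjusted p = 0.00963). Smc2 kept 34.0% of its rise and Ncapg 48.9%. Array probes differ in their response to the amount of RNA, so a smaller difference at 1 probe set than at another is not by itself a smaller change in mRNA.

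Spindle assembly factors gather and bundle microtubules around chromosomes. Tpx2, which activates Aurka and seeds microtubules, had 1.97, 1.88, 1.40, 2.24 and 2.31 in isotype mice. Anti-RGMb mice lay closely together at 0.88, 0.95 and 1.10 as lowest, median and highest, and saline mice between -0.45 and 0.30. The groups did not overlap, with a rise of 1.98 ± 0.13 (adjusted p = 2.6e-09, limma) and a fall of 1.02 ± 0.13 (adjusted p = 3.5e-05). Hmmr, a spindle pole and hyaluronan-binding protein, rose by 2.42 ± 0.23, Dlgap5, which stabilises spindle fibres at kinetochores, by 1.89 ± 0.12, and Aspm, a spindle pole organiser, by 1.79 ± 0.14. Nusap1, which bundles microtubules, had the smallest adjusted p in 2 comparisons, rising by 1.87 ± 0.09 in isotype and by 1.03 ± 0.09 in anti-RGMb mice.

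The last group builds the central spindle and the contractile ring. Prc1, which bundles microtubules between the parting chromosomes, stood at 2.22, 2.26, 1.73, 2.43 and 2.68 in isotype mice. It stood at 1.10, 1.26 and 1.46 as lowest, median and highest in anti-RGMb mice. Among saline mice, number 1 was at -0.96 and the other 5 were between -0.14 and 0.57. Prc1 rose by 2.28 ± 0.20 and fell by 1.03 ± 0.20 (adjusted p = 1.2e-07 and 0.00146, limma). Ect2 and Racgap1, which switch on RhoA at the division site, rose by 1.86 ± 0.12 and 1.79 ± 0.14, Anln, the ring scaffold anillin, by 1.80 ± 0.12, and Cep55, which recruits the cutting machinery, by 2.15 ± 0.14. Between 47.8% and 55.0% of these 5 differences was left under anti-RGMb.

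**Figure D3:**
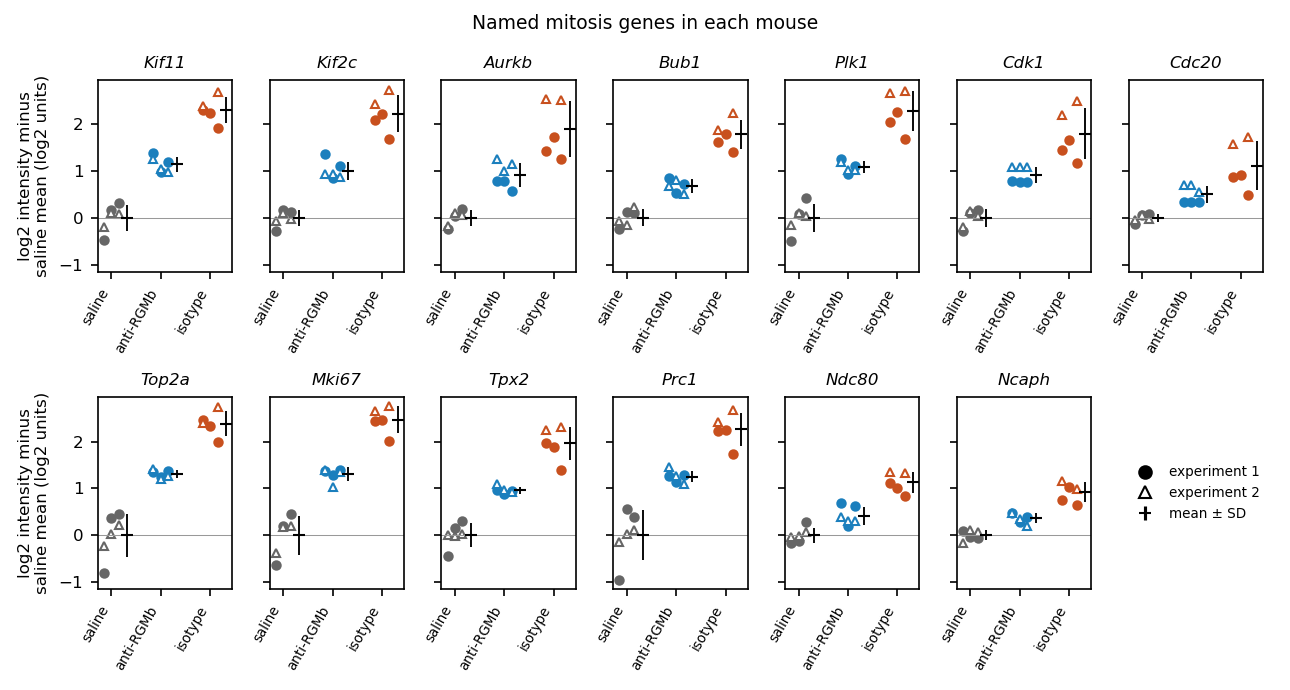
Level over saline (log2 units) of 13 genes in each mouse, with the mean and SD of each group as crosses. Filled circles are mice of experiment 1 and open triangles mice of experiment 2. Of these genes Mki67 and Top2a had the largest differences between isotype and saline mice, Ndc80 and Ncaph the smallest, and in 11 of the 13, all but Top2a and Ncaph, both isotype mice of experiment 2 lie above those of experiment 1.

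The rise was larger in experiment 2. Within experiments all 42 genes were higher in isotype than in saline mice in both (8.81% and 13.7% of all genes were called higher), with medians of 1.61 in experiment 1 and 2.17 in experiment 2, and 41 of the 42 differences were larger in experiment 2, Birc5 being the exception. The difference between the experiments itself passed the threshold for 3 members, Aurkb (1.06 ± 0.19, adjusted p = 0.0149), Cdc20 (0.89 ± 0.15, adjusted p = 0.0096) and Cdk1 (0.92 ± 0.19, adjusted p = 0.0435), all by limma. Of all genes 0.582% did so in this direction, and 18 members had an unadjusted p under 0.05. Aurkb, Cdc20 and Cdk1 are among the members with equal values in anti-RGMb mice. The part of these equal values in the calls was not tested. The fall from isotype to anti-RGMb had medians of -0.76 and -1.27 and was larger in experiment 2 for all 42 genes. It passed the threshold within experiment 1 for 40 members (Prc1 and Hmmr did not, 3.13% of all genes did) and within experiment 2 for 42 (11.3% of all genes). Fitted on the 9 arrays of experiment 1 alone, with no spread shared with experiment 2, it passed for 22 members. In that fit 517 of the 19751 genes were called lower. No member's fall differed between the experiments by limma's adjusted p (smallest 0.109, 18 members under 0.05 unadjusted). Of all genes 0.405% were called with a lower difference in experiment 2.

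The anti-RGMb level itself differed little between experiments, with median differences from saline of 0.92 and 0.87, and 18 of the 42 were larger in experiment 2. Within experiments 37 members (3.26% of all genes) and 34 members (2.65%) passed the threshold against saline, and 24 and 37 when each experiment was fitted alone. Those separate fits called 469 and 441 of the 19751 genes higher. No member's difference from saline differed between the experiments by limma's adjusted p (smallest 0.983, with 4 members under 0.05 unadjusted). Of all genes 0% were called with a higher difference in experiment 2.

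**Figure D4:**
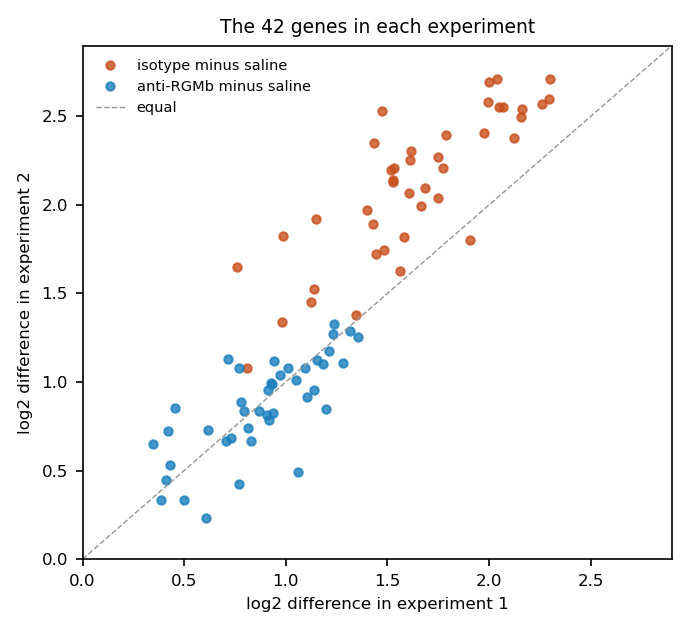
Each point is 1 of the 42 genes, with its log2 difference from saline in experiment 1 on the horizontal and in experiment 2 on the vertical axis. Orange points (isotype) lie above the dashed line of equality for 41 genes, and blue points (anti-RGMb) for 18.

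Other genes of cell division were set beside the members. Of 72 further mitotic genes, 69 were measured, and 67 rose in isotype mice (14.6% of all genes), with a median of 1.21. Cdca5 (sororin, which keeps sister chromatids together) rose by 1.68 ± 0.10, Cks2, a small partner of Cdk1, by 1.44 ± 0.09, and the kinesin gene Kif22 by 1.62 ± 0.11. The 2 that did not pass were Sapcd2 (0.16) and Zwint (0.03). Under anti-RGMb 66 fell relative to isotype (10% of all genes), with a median of -0.72. Above saline stayed 45 (4.26% of all genes), with a median of 0.45. All 25 replication licensing and fork genes rose in isotype mice with a median of 0.93, led by Rrm2, the small subunit of ribonucleotide reductase (1.99 ± 0.11). All 25 fell under anti-RGMb (median -0.60), and 11 stayed above saline (median 0.31), against the same shares of all genes.

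The genes of 2 machines that act in mitosis but also outside it mostly did not pass the threshold. None of the 10 cohesin genes, which hold sister chromatids together and shape chromatin, passed the limma threshold in any of the 3 comparisons (2, 2 and 0 had an unadjusted p under 0.05). Quantile normalization called 2 of them higher in isotype than in saline mice and 2 lower under anti-RGMb than in isotype mice, and median centring called 1 lower in isotype than in saline mice. Of the 14 core genes of the anaphase promoting complex, Anapc15 (0.61 ± 0.09) and its activator Fzr1 (0.29 ± 0.06) rose in isotype mice, Cdc23 (-0.18 ± 0.04) and Anapc13 (-0.19 ± 0.07) fell, and 10 did not pass. With 2 of 14 in each direction these shares are near those of all genes (14.6% higher and 21% lower). Anapc15 and Fzr1 were lower under anti-RGMb than in isotype mice. The difference between these lists and the members was not tested.

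Regulators upstream of the set more often rose than fell in isotype mice. Of 22 transcription regulators of the cell cycle, 10 rose in isotype mice and 2 fell (14.6% and 21% of all genes). The share that fell was thus below that of all genes. Under anti-RGMb 9 were lower than in isotype mice (10% of all genes) and 0 higher (11.1%). Foxm1, an activator of mitotic genes, rose by 1.43 ± 0.12 and fell by 0.76 ± 0.12, and Mybl2 (B-Myb) by 0.67 ± 0.09 and 0.41 ± 0.09. The repressors E2f8 and E2f7, themselves made in dividing cells, rose by 1.73 ± 0.11 and 0.64 ± 0.08. The DREAM subunit gene Lin52 fell by 0.26 and the E2F partner gene Tfdp2 by 0.29 in isotype mice, and the NF-Y subunits Nfya (0.13), Nfyb (-0.07) and Nfyc (-0.06) did not pass.

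Among 9 G1 cyclins and their kinases, 5 rose and 2 fell in isotype mice, where 14.6% of all genes rose and 21% fell. With 2 of 9, the share that fell is near that of all genes. The E-type cyclins of S phase entry rose, Ccne1 by 1.10 ± 0.12 and Ccne2 by 1.18 ± 0.14, as did Cdk2 (0.63 ± 0.07). Ccnd1 and Ccnd2, cyclins that respond to growth signals, fell by 0.40 ± 0.07 and 0.54 ± 0.05. Both were higher under anti-RGMb than in isotype mice, by 0.27 and 0.31 (11.1% of all genes were called higher in this comparison). Of the same 9 genes 4 were lower under anti-RGMb than in isotype mice (10% of all genes), and the median of the list was -0.12. Of 6 measured Cdk inhibitor genes, Cdkn2b (-0.60 ± 0.07), Cdkn1c (-0.38 ± 0.08) and Cdkn1b (-0.17 ± 0.06) fell in isotype mice and Cdkn2d rose (0.37 ± 0.07). Under anti-RGMb Cdkn2b and Cdkn1c were higher than in isotype mice by 0.23 and 0.34, and Cdkn2d was lower by 0.22.

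**Figure D5:**
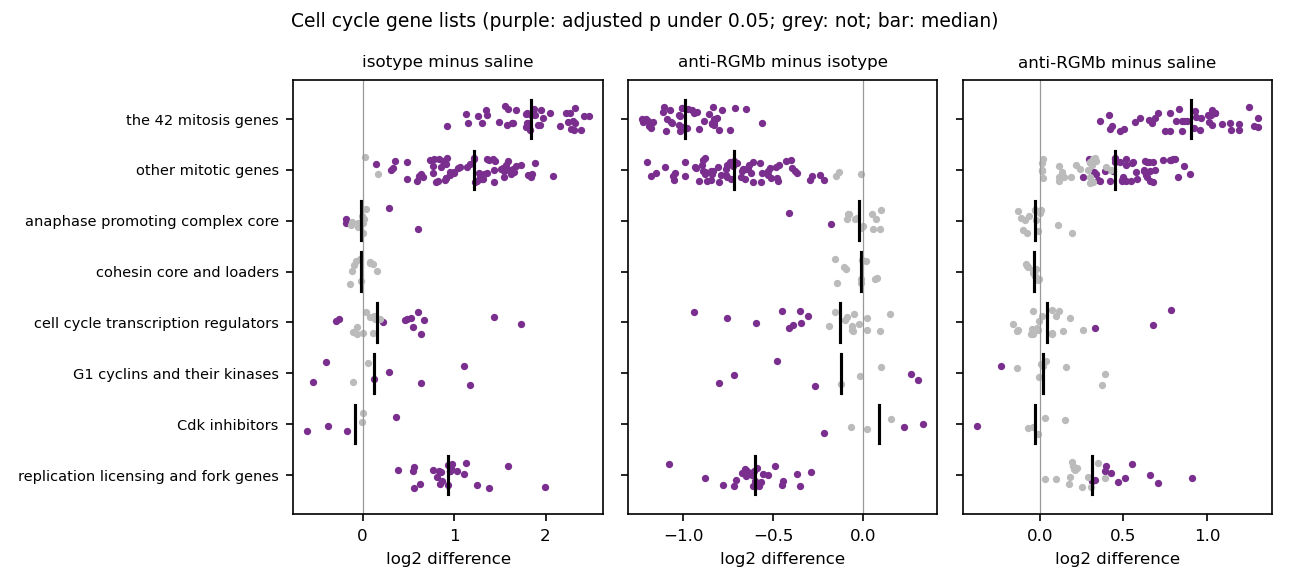
Log2 differences of each gene in 8 lists for the 3 comparisons, purple where the adjusted p was under 0.05 and grey otherwise, with the median of each list as a black bar. The 42 mitosis genes have medians of 1.84, -0.99 and 0.90. The cohesin genes cluster at 0 and the G1 cyclins and Cdk inhibitors lie on both sides of it.

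The members moved together between groups, and most also did so within groups. Across the 17 mice, after the experiment means were removed, each member's correlation with the mean of the other members was 0.942 to 0.997, with a median of 0.987, where the median of all other genes was -0.16. With group means removed as well the range was 0.20 to 0.97 with a median of 0.88, against -0.04 over all other genes. These are descriptions over mice that share arrays and groups. Before group means were removed, 431 genes outside the set had a correlation with its mean above that of the lowest member. The 10 genes outside the set that followed its mean most closely were E2f8, Spag5, Cks2, Shcbp1, H1f5, Arhgap11a, Rrm2, Gas2l3, Dtl and Asf1b, with r of 0.991 to 0.998, and 5 of them are in the lists above. With group means removed, 5 of the 10 were again among the closest 10, and the others there were Rnpep, Kif18b, Csf2rb2, Rnh1 and Ncapd2. Members with CCAAT and a CHR motif in their window had a median rise of 1.80 (24 genes) and the other matched members one of 1.84 (13 genes).

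Markers of other cells changed in the same mice. The 9 measured monocyte and interstitial macrophage markers had a mean level over saline of 1.69 to 2.17 in isotype and of 0.98 to 1.42 in anti-RGMb mice, with 8 of 9 higher in isotype than in saline mice and 8 of 9 lower under anti-RGMb. In what follows, higher counts isotype against saline mice and lower counts anti-RGMb against isotype mice. Of all genes 14.6% and 10% were so called. The 8 eosinophil markers had 2.51 to 2.97 and 1.00 to 2.39 (8 higher, 6 lower). Singly they ran from 0.79 to 8.10 in isotype minus saline, with a median of 1.78 that lies below the list means. The 8 plasma cell markers had 0.74 to 1.74 and 0.33 to 0.85 (5 higher, 2 lower), and 2 others of them, Sdc1 and Prdm1, were lower in isotype than in saline mice. As log2 of the summed intensity over saline the plasma cell list lay at 0.12 to 1.15 in isotype and -0.10 to 0.27 in anti-RGMb mice. T cell markers (9 measured) had 0.33 to 0.80 in isotype and -0.05 to 0.56 in anti-RGMb mice, with 7 higher and 5 lower. Those of B cells and germinal centres (9 measured) had 0.04 to 0.54 and -0.11 to 0.15, with 4 higher and 5 lower. Alveolar macrophage markers (7 measured) had 0.56 to 0.85 and 0.41 to 0.89, with 3 higher and 0 lower. They ran from -0.83 (Cidec) to 3.96 (Chil3) in isotype minus saline, where Cidec and Car4 were lower, and Cidec was higher under anti-RGMb than in isotype mice.

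Thymus markers (8 measured) lay at -0.07 to 0.10 in isotype and -0.08 to 0.20 in anti-RGMb mice. Of these 8, Themis was called higher in isotype mice, a share near the 14.6% of all genes. Erythroid precursor markers (5 measured) lay at -0.33 to 0.16 and -0.14 to 0.20. In isotype against saline mice Tfrc, the transferrin receptor that dividing cells also make, was higher (0.99) and Alas2, Epor and Slc4a1 were lower (-0.50 to -0.30). Under anti-RGMb Tfrc was lower and Alas2 and Slc4a1 were higher than in isotype mice. Endothelial markers (8 measured) were lower in isotype mice, at -0.68 to -0.32, and at -0.25 to -0.11 in anti-RGMb mice. Mast cell and basophil markers (8 measured) lay at 0.22 to 0.96 and 0.29 to 0.63, neutrophil markers (8) at 0.28 to 0.92 and -0.32 to 0.71, lymph node stroma markers (5) at 0.03 to 0.61 and -0.15 to 0.38, and alveolar type 2 cell markers (8) at -0.23 to -0.11 and -0.14 to 0.01. In isotype against saline mice 6 mast cell and basophil markers were called higher and 2 lower, and 3 neutrophil markers higher. Of all genes 14.6% were called higher and 21% lower there, so the share of 2 of 8 is near that of all genes. Under anti-RGMb 2 mast cell and basophil markers were higher and 1 neutrophil marker lower than in isotype mice. Of all genes 11.1% were called higher and 10% lower there, so the share of 1 of 8 is near that of all genes. By the sum, which the brightest markers weigh on most, the mast cell and basophil list lay at -0.40 to -0.03 in isotype and -0.11 to 0.14 in anti-RGMb mice, on the other side of 0 from its mean in isotype mice. The stroma list lay by its sum at 1.31 to 1.98 and -0.07 to 0.97. Of its 5 genes 1 was higher in isotype than in saline mice (14.6% of all genes). Under anti-RGMb 1 was lower than in isotype mice (10%) and 1 higher than in saline mice (4.26%). Array intensities are never 0, so no marker was at 0. The part of these cells in the rise and fall of the mitosis genes was not tested.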

How the data were processed

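Lung RNA of 17 mice was measured, 1 array per mouse. Per the submitters' processing notes, the authors ran RMA, which corrects background, normalizes arrays and summarises probes, and the deposited values are linear intensity, a scale read here from the values themselves. The sources used here do not give the RMA version. Of 24679 probe sets, 21354 had 1 gene symbol, 1275 several and 2050 none. Only those with 1 symbol were used, and the brightest was taken for 893 genes that had more than 1, giving 19751 genes. The log2 intensity was modelled by limma 3.58.1 (R 4.3.3) on group and experiment (the replicate set), with moderated variances (prior degrees of freedom 4.32). The script was tested on simulated data. A model of group by experiment gave values within experiments and their difference.

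The members and gene lists were chosen with earlier results of these data known. Members shown per mouse are 1 or 2 per role and the largest and smallest of each comparison, and listed genes are named by smallest p or by a direction opposite to most of their list. Kif4, Spc25 and other genes named for a value were chosen after values were seen. Alternatives were other normalizations, probe set rules, filters and weights, the experiment term left out, mouse number as a block, single experiments, and each mouse left out. The number of arrays limits the precision.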

Additional observations from a re-analysis of the deposited data

Results flagged for a closer look

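In the anti-RGMb group 2 values lay far from the other 5 by Dixon's test on 129 groups of values, where chance gives about 1 in 20. At that rate chance alone would give more flags than these 2. Mki67 in mouse 2-2 was 1.02 over saline, against 1.29 to 1.39 in the others. Smc2 in mouse 2 was 0.27, against 0.42 to 0.50.

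The isotype minus saline difference was larger in experiment 2 than in experiment 1 by 1.06 log2 units for Aurkb, 0.89 for Cdc20 and 0.92 for Cdk1, each past the threshold of limma's test of that difference. Each of these genes has deposited values that are exactly equal in anti-RGMb mice, and the part of these in the calls was not tested.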

How the results depend on the processing

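The counts of 42 members higher in isotype than in saline mice, lower in anti-RGMb than in isotype mice and higher in anti-RGMb than in saline mice were the same with median centring, all probe sets averaged, array weights, and moderated variances with trend and robust fitting. Quantile normalization gave 42, 42 and 41. A filter that dropped the dimmest 40% of genes kept 31 members, all of them called. With no replicate block, that is, without the experiment term, the counts were 3, 0 and 0 (34, 6 and 12 at unadjusted p under 0.05), as arrays of different scale are then set together, and all genes gave 35, 0 and 10 calls. Experiment 1 alone gave 42, 22 and 24 members and experiment 2 alone 42, 42 and 37. In the same directions these fits called 1847, 517 and 469 of the 19751 genes, and 2278, 1661 and 441. Leaving out each mouse gave 42, 42 and 41 to 42, with medians of 1.76 to 1.94, -1.10 to -0.88 and 0.83 to 0.98.

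Mouse numbers recur across groups. Same-numbered mice did not deviate together (3 of 16 pairs above a correlation of 0.1, range -0.60 to 0.30). With mouse number as a replicate block the counts were 42, 42 and 42 and the medians 1.82, -0.98 and 0.90. In anti-RGMb minus saline, 65.6% of all calls were higher, and 54.6% with median centring. The calls over all genes there were 842 higher and 442 lower, with array weights 1297 and 1244, in experiment 1 alone 469 and 81, in experiment 2 alone 441 and 40, with the mouse block 711 and 233, with the dimmest genes dropped 824 and 680, with median centring 843 and 700, and 689 to 961 and 207 to 654 with a mouse left out. No member changed direction under any alternative run. The interaction with experiment was called for 3 members, and for 4 with trend and robust fitting.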
